A study of Mus musculus with 24 samples.

Results

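Chemokines that T cells themselves release were followed through 4 states of CD4+ T cells and 2 genotypes. The 8 genes taken were Ccl1, Ccl3, Ccl4, Ccl5, Ccl17, Ccl22, Xcl1 and Cxcl10, and every probe that the deposited table assigns to 1 of these symbols was used. They account for 9 of 25697 probes and for 8 of 18120 gene symbols on the array. Of these, 7 genes with 8 probes were detected (a signal above the negative controls, with a detection p no higher than 0.02) on 1 or more of 24 arrays and were tested. Ccl22 did so on 0 arrays. Where a gene had 2 probes, as Ccl4 did, the brighter probe stood for the gene.

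The cells came from WT mice and from mice in which Pbrm1, the gene of the chromatin remodeling subunit BAF180, was deleted in T cells late in their thymic development (a conditional knockout with Cre under the CD4 promoter), so that cells without BAF180 were compared with cells of the same kind that had it. Naïve CD4+ cells of high CD62L were isolated to 95% purity from spleens and lymph nodes of mice aged 4 to 6 weeks, which the labels call Balb/c while the methods of the study describe another background. They were used at once (resting naïve), after 24 hours on plates coated with anti-CD3 (1 µg/ml) and anti-CD28 (2 µg/ml) (stimulated naïve), or after culture on such plates with IL-4 (10 ng/ml), anti-IFN-gamma (10 µg/ml) and IL-2 (100 U/ml) (resting Th2), and a part of the Th2 cells was given PMA (50 ng/ml) and ionomycin (500 ng/ml) for 1.5 hours (stimulated Th2). Each of the 8 groups had 3 arrays, replicates A, B and C. Naïve and Th2 cells were thus stimulated by different agents for different times, and these cannot be told apart from the cell type.

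Chemokines are small secreted proteins that draw other cells along a gradient by binding receptors with 7 membrane passes. In T cells most of them are silent or low at rest and are switched on by signals from the antigen receptor, which act through calcium and the factor NFAT and through the kinases that lead to AP-1 and NF-kappaB. PMA and ionomycin mimic these signals from within the cell. Ccl3 and Ccl4 (MIP-1 alpha and beta) and Ccl5 (RANTES) attract T cells and monocytes, Ccl1 binds CCR8, Ccl17 and Ccl22 bind CCR4, Xcl1 (lymphotactin) binds XCR1 on cross-presenting dendritic cells, and Cxcl10 is an interferon-induced ligand of CXCR3.

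The oligos that measured Ccl3, Ccl4, Ccl5 and Ccl1 are shown because most of the results rest on them. Given are the first 30 of 50 bases, as the deposited table writes them, 5′ to 3′.
Ccl3: gatctgcgctgactccaaagagacctgggt
Ccl4, brighter probe: cccatggagatggtccaccattgctgtttc
Ccl4, dimmer probe: agctttgtgatggattactatgagaccagc
Ccl5: caactatttggagatgagctaggatagagg
Ccl1: ctagagaggcttgagacagaaacttatcac
The longest run of bases that the full probes of 2 different members had in common was 9, and the longest run that any member's probe shared with a probe of another gene on the array was 14 bases. In the RefSeq gene order, Ccl3 and Ccl4 are direct neighbours on chromosome 11, which also carries Ccl1 and Ccl5, while Ccl17 and Ccl22 lie on chromosome 8, Cxcl10 next to Cxcl11 on chromosome 5, and Xcl1 on chromosome 1.

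RefSeq promoters (GRCm38.p6) were given for 6 of the 8 genes. The 250 bases before the start site are printed for 3 genes that rose together on stimulation of Th2 cells and for Cxcl10, which had almost no signal in Th2 cells. Capitals mark matches, on either strand, to the NFAT core GGAAA, the AP-1 motif TGANTCA, the NF-kappaB motif, the interferon element (ISRE) GAAANNGAAA or the STAT motif TTCNNNNGAA.
Ccl1, chr11:82179813-82180062, minus strand: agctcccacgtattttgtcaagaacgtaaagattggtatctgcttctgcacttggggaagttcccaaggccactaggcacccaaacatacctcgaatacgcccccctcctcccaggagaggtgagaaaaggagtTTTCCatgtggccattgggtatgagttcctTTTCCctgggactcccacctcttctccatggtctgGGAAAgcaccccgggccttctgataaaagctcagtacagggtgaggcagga
Ccl3, chr11:83649379-83649628, minus strand: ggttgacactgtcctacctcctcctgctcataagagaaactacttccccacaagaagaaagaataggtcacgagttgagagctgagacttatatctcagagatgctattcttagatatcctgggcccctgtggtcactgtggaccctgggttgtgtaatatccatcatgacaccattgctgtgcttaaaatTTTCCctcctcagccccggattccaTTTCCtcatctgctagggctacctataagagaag
Xcl1, chr1:164935523-164935772, minus strand: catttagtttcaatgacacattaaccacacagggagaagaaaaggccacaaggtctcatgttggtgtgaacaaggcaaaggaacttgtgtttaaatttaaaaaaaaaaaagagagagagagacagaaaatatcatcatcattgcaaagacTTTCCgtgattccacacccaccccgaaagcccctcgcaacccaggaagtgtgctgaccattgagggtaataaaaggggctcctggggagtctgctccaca
Cxcl10, chr5:92348890-92349139, minus strand: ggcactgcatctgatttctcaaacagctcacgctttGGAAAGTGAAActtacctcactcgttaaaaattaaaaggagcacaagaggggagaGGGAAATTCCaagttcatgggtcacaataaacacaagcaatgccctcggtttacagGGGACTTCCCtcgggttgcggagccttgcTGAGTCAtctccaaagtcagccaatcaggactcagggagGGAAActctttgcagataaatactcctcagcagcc
The Ccl1 window held 3 NFAT cores, that of Ccl3 held 2 and that of Xcl1 held 1, and none of these 3 held any of the other motifs. Among all 32851 promoters the NFAT core was found in 55.6%, so that its presence sets no gene apart. The Cxcl10 window held 7 matches, namely 3 NFAT cores, 2 NF-kappaB motifs, 1 ISRE and 1 AP-1 motif, of which 1 NFAT core overlapped the ISRE and another an NF-kappaB motif. NF-kappaB, ISRE and AP-1 motifs were found in 3.9%, 2.98% and 6.75% of all promoters. In the promoter of Ccl17 a STAT motif, found in 5.85% of promoters, overlapped an NFAT core, and that of Ccl22 held no match. A match describes the letters of this window and not a bound factor.

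Signals are given as background-corrected, quantile-normalized log2 values. The lowest detected signal of an array lay between 4.51 and 5.02, and values of a chemokine on arrays that did not detect it between 4.11 and 4.81. Between 8047 and 10689 probes were detected per array. The brightest probe of Pbrm1 was lower in BAF180-deficient cells by between 1.01 and 1.86 on the log2 scale, without overlap of arrays in any of the 4 states (limma adjusted p between 0.00101 and 0.121). The other 2 Pbrm1 probes differed by -0.40 to -0.76, with limma adjusted p of 0.694 or higher and overlapping arrays in 3 of 8 comparisons. The T cell markers Cd3d, Cd3e, Cd4 and Thy1 were detected on every array, and the summed signal of 4 Th2 markers (Gata3, Il4, Il5 and Il13) was between 18600 and 21000 in stimulated Th2 cells against 287 to 457 in resting naïve cells. Resting naïve arrays differed from the rest in markers of other cells: 5 of 7 myeloid markers were detected on each of them (among these Lyz2, Cd14 and S100a8, while Itgam and Fcgr1 were not), with a summed signal of 1190 to 5320 against at most 158 elsewhere, and 6 B cell markers summed to 5270 to 9190 against at most 1550 elsewhere. Signals of the 6 natural killer cell markers summed to 389 to 650 on resting naïve arrays and to at most 261 elsewhere, with Ncr1 not detected on any array. The part of such other cells in the signals of Ccl3, Ccl4, Ccl5, Xcl1 and Cxcl10 on resting naïve arrays was not tested.

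**Figure D1:**
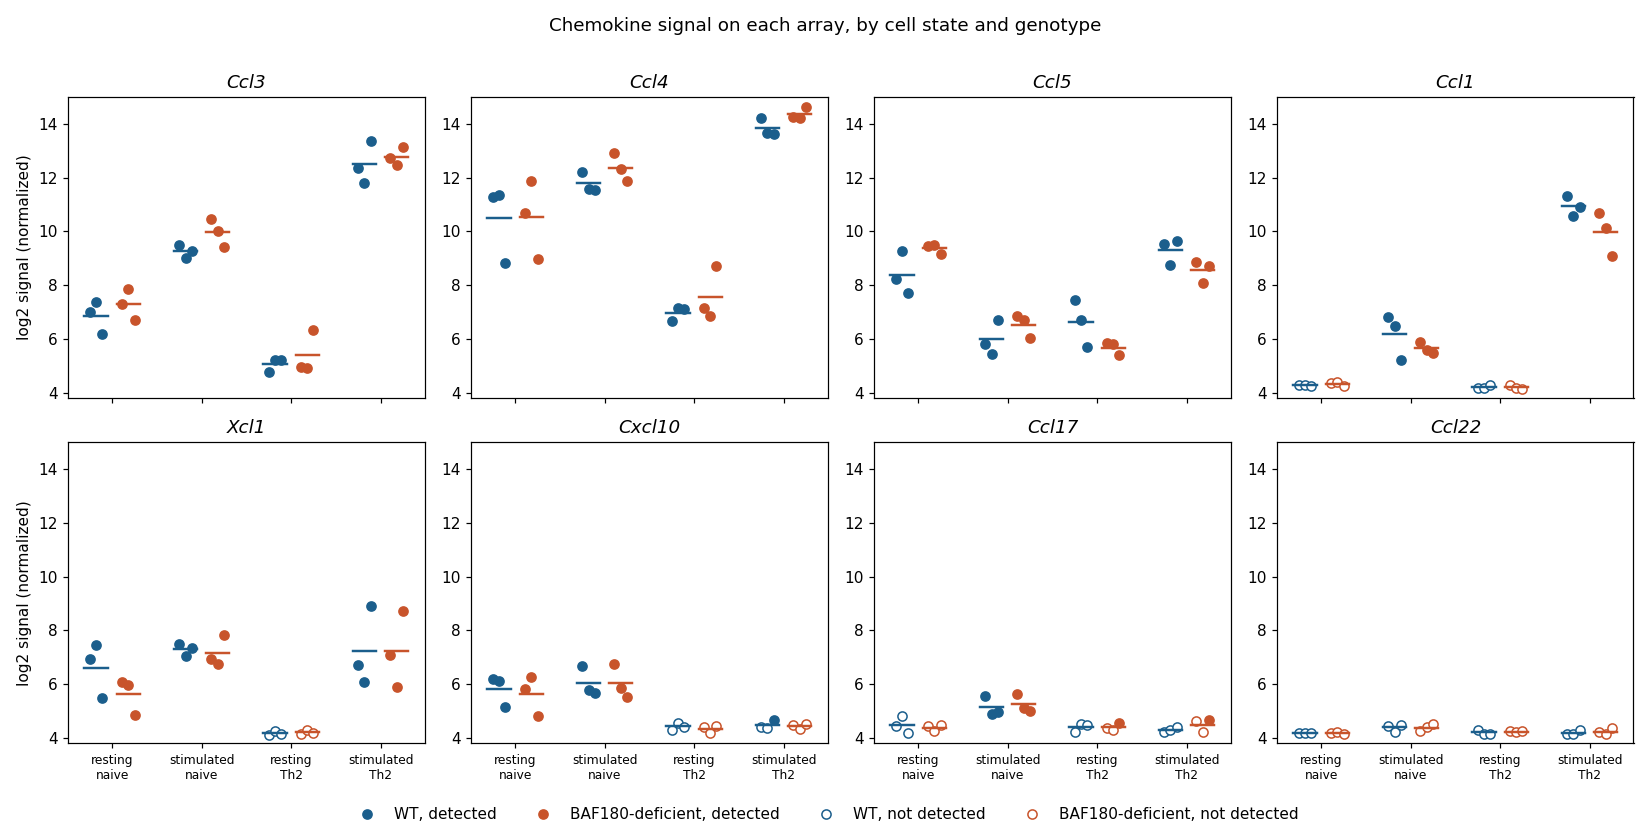
Normalized log2 signal of the 8 chemokine genes on each of 24 arrays, by cell state (x axis) and genotype (blue WT, orange BAF180-deficient), with a bar at the mean of 3 arrays and open points where the probe was not detected. Ccl1, Ccl3 and Ccl4 had their highest means in stimulated Th2 cells. Ccl5 did so in WT cells, while in BAF180-deficient cells its mean was highest in resting naïve cells (9.37 against 8.55). Cxcl10 was detected on all naïve arrays, and Ccl17 was faint and detected on all arrays of stimulated naïve cells only. The heights of different panels cannot be compared, since probes differ in efficiency.

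Stimulation of Th2 cells changed most of the chemokines. In WT cells 5 of the 7 tested genes rose (Ccl1, Ccl3, Ccl4, Ccl5 and Xcl1), by between 2.69 and 7.45 on the log2 scale, and Ccl17 and Cxcl10 did not pass the test (limma, adjusted p below 0.05). Across all 14246 tested probes 27.3% were called in this comparison, and 13% as higher. The median difference of the 7 genes was 3.05 against -0.002 over all probes. The same comparison in BAF180-deficient cells called 5 of 7 genes, all higher, with 25.8% of all probes called and 12% called higher. Stimulation of naïve cells called 4 genes in WT cells, where Ccl1, Ccl3 and Ccl17 rose and Ccl5 fell, and 5 in BAF180-deficient cells, where Ccl4 rose as well. Here 43.6% and 41.6% of all probes were called. Resting Th2 cells against resting naïve cells had 5 genes called in WT, all lower in Th2 cells (Ccl3, Ccl4, Ccl5, Xcl1 and Cxcl10), and 4 in BAF180-deficient cells, where Xcl1 was not called (34.4% and 34.7% of all probes called, and 16% and 15.9% called lower). WT and BAF180-deficient arrays of a letter tended to deviate together, so the contrasts of the 2 genotypes are not independent of each other. As these are bulk RNA samples, fewer cells of a kind and less RNA per cell cannot be told apart.

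The comparisons with resting naïve cells depended on the scaling. When arrays were scaled to a common median instead of being quantile normalized, the median of all probes in resting Th2 minus resting naïve WT cells moved from 0.03 to 0.321, the share of higher among all called probes from 53.5% to 85.0%, and 2 members in place of 5 were called (Ccl4 at -2.52 and Cxcl10 at -0.80). For stimulated minus resting naïve cells the median of all probes moved to 0.244 and the share of higher calls from 54.1% to 83.0%, and for stimulated minus resting Th2 cells to 0.048 and from 47.6% to 61.1%. The 5 members called in stimulated Th2 cells were called under median scaling too.

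**Figure D2:**
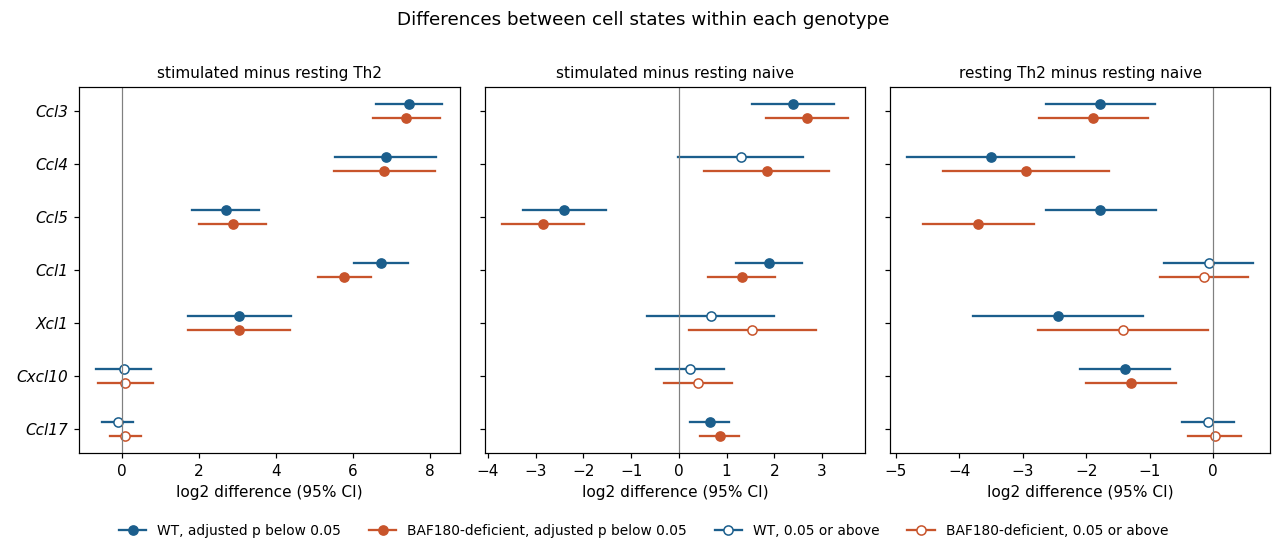
Log2 difference between cell states (x axis, with 95% confidence interval) for the 7 tested chemokines, within WT cells (blue) and within BAF180-deficient cells (orange), with filled points where the adjusted p was below 0.05. Stimulated Th2 cells exceeded resting Th2 cells by 2.69 to 7.45 for 5 genes, Ccl5 fell when naïve cells were stimulated, and no chemokine was called higher in resting Th2 than in resting naïve cells.

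Ccl3, an inflammatory chemokine, followed stimulation in both cell types. In WT cells its values on replicates A, B and C were 7.01, 7.36 and 6.17 in resting naïve, 9.49, 9.01 and 9.25 in stimulated naïve, 4.77, 5.21 and 5.21 in resting Th2 and 12.36, 11.81 and 13.36 in stimulated Th2 cells. No array of 1 state overlapped with those of another, and all 3 neighbours in the order stimulated Th2, stimulated naïve, resting naïve, resting Th2 were separated. Stimulation raised Ccl3 by 7.45 ± 0.41 in Th2 cells (SE, 174-fold, adjusted p = 4.17e-11, limma) and by 2.40 ± 0.41 in naïve cells (5.3-fold, adjusted p = 7.36e-05, limma), and resting Th2 cells were below resting naïve cells by 1.78 ± 0.41. BAF180-deficient cells had 7.30, 7.86 and 6.69 in resting naïve, 10.47, 10.01 and 9.42 in stimulated naïve, 4.97, 4.90 and 6.33 in resting Th2 and 12.73, 12.47 and 13.13 in stimulated Th2 cells. They showed the same order of states, with differences of 7.38 on stimulation of Th2 cells and 2.68 on that of naïve cells. Replicate C of resting Th2 cells stood above the other two.

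Ccl4, the neighbour of Ccl3, had a like pattern, with a wide spread among resting naïve arrays. Its WT values were 11.28, 11.36 and 8.82 in resting naïve, 12.22, 11.58 and 11.55 in stimulated naïve, 6.67, 7.16 and 7.11 in resting Th2 and 14.20, 13.66 and 13.63 in stimulated Th2 cells. Replicate C of resting naïve cells stood far below A and B. Stimulation raised Ccl4 by 6.85 ± 0.63 in WT Th2 cells (SE, 116-fold, adjusted p = 6.29e-08, limma), and resting Th2 cells were below resting naïve cells by 3.51 ± 0.63 (adjusted p = 0.000198). In naïve cells the WT arrays did not overlap on stimulation, but the difference of 1.30 ± 0.63 was not called (adjusted p = 0.103). The dimmer probe gave 1.63 ± 0.59 with an adjusted p of 0.0308, which was 0.232 without resting naïve WT replicate C (difference 0.85) and between 0.0509 and 0.0874 without any of the 3 stimulated naïve arrays. The dimmer probe also gave a larger rise in Th2 cells (7.97, 250-fold) and a smaller drop from resting naïve to resting Th2 cells (-2.24), so the probes had the same directions and differed in size. The deposited intensities of the brighter probe in stimulated WT Th2 cells were 18152, 17897 and 19204, close together and among the brightest of arrays whose highest intensities were 25349, 25428 and 26795, while those of the dimmer probe were 7160, 7044 and 19500. On stimulated BAF180-deficient replicate C the brighter probe had the highest intensity of the whole array, at 25422. The part of saturation in the difference between the probes was not tested.

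In BAF180-deficient cells the Ccl4 values were 10.70, 11.89 and 8.96 in resting naïve, 12.91, 12.32 and 11.86 in stimulated naïve, 7.13, 6.86 and 8.72 in resting Th2 and 14.26, 14.20 and 14.64 in stimulated Th2 cells. The low replicate C of resting naïve cells and a high replicate C of resting Th2 cells were seen again, and the naïve groups overlapped. Stimulation raised Ccl4 by 6.80 in Th2 cells and by 1.84 in naïve cells, where the adjusted p was 0.0229 and became 0.176 without resting naïve replicate C (difference 1.06), 0.0827 without stimulated naïve replicate A and 0.0508 without stimulated naïve replicate B. Over the 24 arrays Ccl3 and Ccl4 had a Pearson correlation of 0.953, a description of points that share cell state, array and RNA.

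Ccl5, which T cells usually make late after activation and keep as memory cells, went the other way in naïve cells. The WT values were 8.21, 9.26 and 7.69 in naïve cells at rest, 5.82, 5.45 and 6.70 in stimulated naïve, 7.44, 6.70 and 5.69 in resting Th2 and 9.53, 8.73 and 9.64 in stimulated Th2 cells. All resting naïve arrays lay above all stimulated naïve arrays, while stimulated naïve and resting Th2 cells overlapped. Ccl5 fell by 2.40 ± 0.42 on stimulation of WT naïve cells (SE, 5.27-fold, adjusted p = 8.24e-05, limma) and rose by 2.69 ± 0.42 on stimulation of Th2 cells (6.46-fold, adjusted p = 4.44e-05, limma). Under median scaling the fall in naïve cells was 1.41 with an adjusted p of 0.0557.
The BAF180-deficient values of Ccl5 were 9.47, 9.51 and 9.14 in resting naïve, 6.85, 6.71 and 6.02 in stimulated naïve, 5.84, 5.80 and 5.39 in resting Th2 and 8.86, 8.08 and 8.71 in stimulated Th2 cells. It fell by 2.84 on stimulation of naïve cells and rose by 2.88 on that of Th2 cells, and all resting naïve arrays were above all stimulated Th2 arrays without being called apart (adjusted p = 0.114). Resting Th2 cells were below resting naïve cells by 3.70 in BAF180-deficient and by 1.78 in WT cells. Myeloid, B and natural killer cell markers were at their highest on the same resting naïve arrays, and their part in the Ccl5 signal was not tested.

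Ccl1, a ligand made by activated Th2 cells, was off at rest. None of the 12 resting arrays detected it, with values between 4.15 and 4.41. WT values were 6.82, 6.48 and 5.20 in stimulated naïve and 11.32, 10.57 and 10.91 in stimulated Th2 cells, and BAF180-deficient values were 5.89, 5.60 and 5.47 and then 10.70, 10.13 and 9.07. Every stimulated array was above every resting array and every stimulated Th2 array above every stimulated naïve array. Because the resting groups gave only a bound, folds are stated against the higher of the lowest detected signal of each array and the probe's own value there. By that measure stimulated Th2 cells had at least 80.6-fold more Ccl1 in WT (fitted difference 6.72 ± 0.33, adjusted p = 9.29e-12, limma) and at least 42.0-fold more in BAF180-deficient cells (5.77, adjusted p = 1.19e-10, limma). Stimulated naïve cells had at least 2.47-fold and at least 1.79-fold more. Stimulated Th2 cells exceeded stimulated naïve cells by 4.77 in WT and 4.32 in BAF180-deficient cells.

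Xcl1 was detected on every array of 3 states and not in resting Th2 cells. WT values were 6.93, 7.45 and 5.47 in resting naïve, 7.50, 7.03 and 7.34 in stimulated naïve and 6.71, 6.06 and 8.89 in stimulated Th2 cells, and no array of resting Th2 cells detected it (4.11 to 4.28 in both genotypes). In BAF180-deficient cells they were 6.06, 5.97 and 4.85, then 6.93, 6.75 and 7.84, then 7.10, 5.91 and 8.73. Replicate C was the highest stimulated Th2 array and the lowest resting naïve array in both genotypes. Stimulation of Th2 cells raised Xcl1 at least 6.16-fold in WT (3.05 ± 0.64, adjusted p = 0.001, limma) and at least 6.36-fold in BAF180-deficient cells (3.04, adjusted p = 0.00118, limma). Without replicate C of stimulated Th2 cells these differences were 2.22 and 2.30, still called. Resting naïve cells had at least 4.05-fold more Xcl1 than resting Th2 cells in WT (adjusted p = 0.00534, limma), a call that was lost with an offset of 50 (adjusted p = 0.0514) and under median scaling (adjusted p = 0.133), and in BAF180-deficient cells the difference was not called (adjusted p = 0.0912). In naïve cells the differences of 0.67 in WT and 1.54 in BAF180-deficient cells were not called (adjusted p = 0.433 and 0.0591, limma). Median scaling called the latter, as it did all 7 tested genes on stimulation of BAF180-deficient naïve cells. The means of stimulated naïve, stimulated Th2 and resting naïve cells were not separated from one another in WT, while that of resting naïve cells was separated from resting Th2 cells.

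Cxcl10, by contrast, was a signal of the naïve samples. WT values were 6.20, 6.11 and 5.13 in resting and 6.67, 5.78 and 5.68 in stimulated naïve cells, and BAF180-deficient values were 5.83, 6.28 and 4.82 in resting and 6.75, 5.85 and 5.53 in stimulated naïve cells. All 12 naïve arrays detected it, against 1 of 12 Th2 arrays (stimulated WT replicate C, at 4.66). Resting naïve cells had at least 2.32-fold more than resting Th2 cells in WT (difference -1.39 ± 0.34, adjusted p = 0.00333, limma) and at least 2.09-fold more in BAF180-deficient cells. Stimulation of naïve cells gave a difference of 0.23 in WT and 0.40 in BAF180-deficient cells, neither called. Without replicate C of resting naïve cells, an alternative chosen after seeing the data, they were -0.11 and -0.01, and under median scaling 0.86 and 0.99, then with adjusted p of 0.0135 and 0.00531.

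The CCR4 ligands were faint or not detected. Ccl17 was detected on all 6 stimulated naïve arrays (5.54, 4.87 and 4.98 in WT and 5.65, 5.10 and 4.99 in BAF180-deficient cells) and otherwise only on replicate C of BAF180-deficient resting (4.57) and stimulated (4.66) Th2 cells. It rose at least 1.21-fold on stimulation of WT naïve cells (0.65 ± 0.20, adjusted p = 0.0105, limma) and at least 1.35-fold in BAF180-deficient ones (0.86, adjusted p = 0.00125, limma). The WT call was lost without stimulated naïve WT replicate A (0.44, adjusted p = 0.0839) and without resting naïve WT replicate C (0.50, adjusted p = 0.0617). Dendritic cells are a common source of Ccl17, and of 6 dendritic cell markers Zbtb46 was detected on 3 stimulated naïve arrays, Batf3 on all arrays, and Itgax and Flt3 on none. The summed signal of the 6 markers was 101 to 281 on stimulated naïve, 163 to 248 on resting naïve and 32.3 to 167 on Th2 arrays. Stimulation of WT naïve cells called 2 of the 4 markers detected on some array higher and 2 lower. In BAF180-deficient naïve cells 1 was called higher and 1 lower (43.6% and 41.6% of all probes were called). The part of dendritic cells in the Ccl17 signal was not tested. The Ccl22 probe stayed between 4.13 and 4.50 on the 24 arrays, with a lowest detection p of 0.0226.

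Stimulated Th2 cells were also set beside stimulated naïve cells. In WT, Ccl1, Ccl3, Ccl4 and Ccl5 were higher in Th2 cells, by between 2.05 and 4.77, and Cxcl10 (-1.57, detected on 1 of 3 stimulated Th2 arrays) and Ccl17 (at least 1.38-fold, detected on 0 of 3) were lower, while Xcl1 differed by -0.07 with an adjusted p of 0.975 (6 of 7 called, against 20.1% of all probes). The same 6 genes were called in the same directions in BAF180-deficient cells, against 20.5% of all probes. The dimmer Ccl4 probe differed by 4.10 in WT and 3.87 in BAF180-deficient cells, called with each array left out in turn (adjusted p up to 0.000457 and 0.000921). For the brighter Ccl4 probe the difference was 2.05 and the WT call had an adjusted p of 0.0243, which rose to 0.0911 without stimulated Th2 replicate A and to 0.07 and 0.0771 without stimulated naïve replicates B and C, to 0.0666 without the detection filter and to 0.102 with Z-scores. In BAF180-deficient cells the Ccl4 call was lost without any of 5 of the 6 arrays (adjusted p up to 0.0975, without stimulated naïve replicate C), all but stimulated naïve replicate A, and with Z-scores (0.0508), median scaling (0.0739) and no detection filter (0.0708), and the Ccl17 call without stimulated naïve replicate A (-0.55) or stimulated Th2 replicate B (-0.61).

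The question of the study was what the loss of BAF180 does to gene expression in these cells. For the chemokines no difference met the criteria of the study's methods (signal above 0, p under 0.05, FDR under 0.3 and a Z-ratio, the difference over its SD across genes, past 1.5) in any state, as tested with limma. The count was 0 of 7 in resting Th2 cells, where 0.0842% of all probes were called, 0 of 7 in stimulated Th2 cells (0.0913%), 0 of 7 in resting naïve cells (0.681%) and 0 of 7 in stimulated naïve cells (0.112%). The study, which took p and FDR from Z-scores, reported far more changed genes than were called here. These counts are therefore not those of its own analysis. Neither genotype had a detected signal of Ccl1, Xcl1 or Cxcl10 in resting Th2 cells, or of Ccl1 or Ccl17 in resting naïve cells. Ccl17 in Th2 cells of both states and Cxcl10 in stimulated Th2 cells were detected on 1 array of 1 genotype only. For these genes in these states a missing call or an overlap of arrays says nothing about expression. The unadjusted p was below 0.05 for 1 gene in each of resting Th2, stimulated Th2 and resting naïve cells and for 0 in stimulated naïve cells, while 3.43%, 2.79%, 6.83% and 2.25% of all probes had such a p. WT and BAF180-deficient arrays overlapped for each of the 7 genes in each state, and 10.1%, 7.31%, 7.99% and 6.46% of all probes did not overlap. Standard errors of these differences ran from 0.20 for Ccl17 to 0.64 for Xcl1 on the log2 scale. Differences well above their standard error were not called either. Examples were -0.96 ± 0.33 for Ccl1 in stimulated Th2 cells and 0.99 ± 0.42 for Ccl5 in resting naïve cells (SE). Changes of up to about that size could thus not be told from none. Each SE rests on 1 spread per gene fitted over all 8 groups. For Ccl1 the undetected resting groups (SD 0.04 to 0.08) narrowed it, as the stimulated Th2 groups had SD of 0.37 and 0.82. The SE of Xcl1 was likewise narrower than its SD of 1.48 and 1.42 in stimulated Th2 cells would give.

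**Figure D3:**
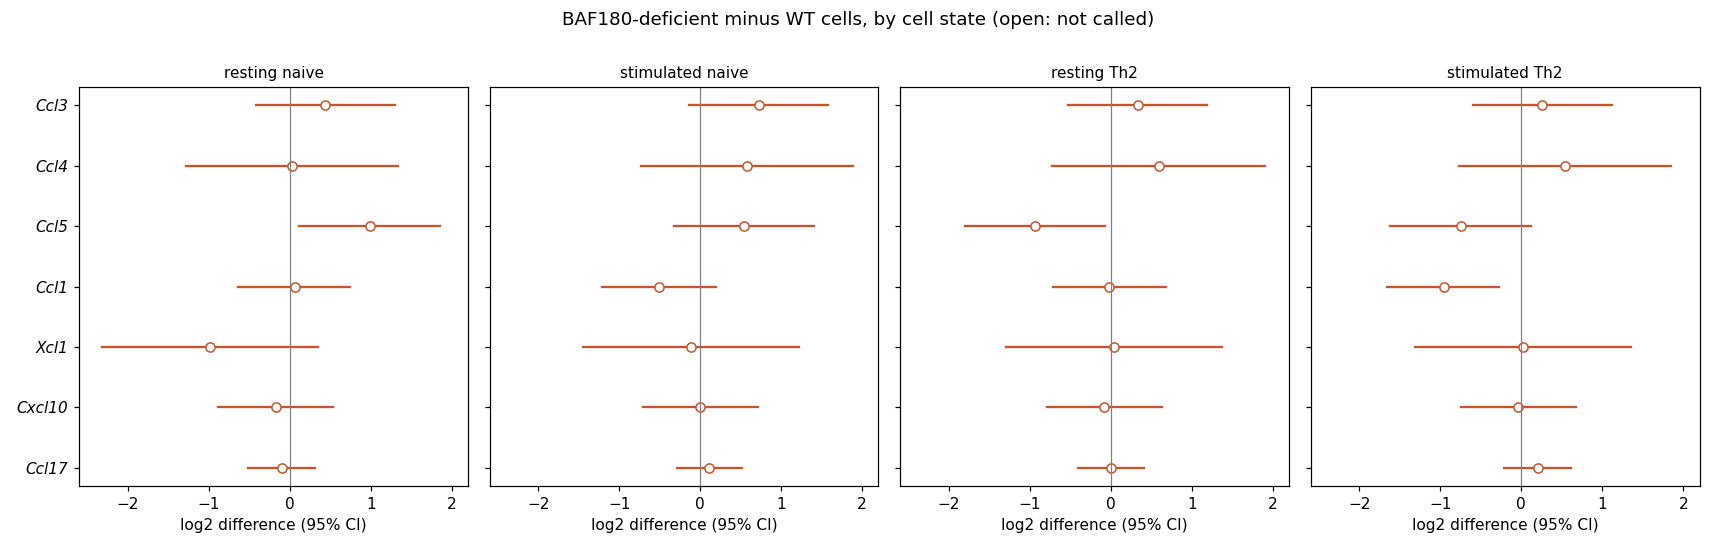
Log2 difference of BAF180-deficient minus WT cells (x axis, with 95% confidence interval) for the 7 tested chemokines in each of 4 cell states, with open points for differences that were not called, which all were. The intervals of Ccl5 in resting naïve cells (0.12 to 1.86) and in resting Th2 cells (-1.80 to -0.07) and of Ccl1 in stimulated Th2 cells (-1.66 to -0.27) do not span 0. Intervals use 1 spread per gene over all 8 groups, and resting groups at background (SD 0.04 to 0.08) narrowed that of Ccl1.

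Ccl1 in stimulated Th2 cells and Ccl5 at rest had the lowest unadjusted p. Ccl1 averaged 10.93 ± 0.37 in WT and 9.97 ± 0.82 in BAF180-deficient stimulated Th2 cells (SD, n = 3), and each BAF180-deficient array lay below the WT array of the same letter, by 0.62, 0.44 and 1.83. The pairs hold the same values that gave the low p, so their agreement lends no further support. The difference was -0.96 with an adjusted p of 1 (limma), and of 0.862 with the replicate letters as a block. An exact two-sided permutation test of the 6 arrays gave p = 0.2, where the smallest it can give is 0.1. In stimulated naïve cells Ccl1 differed by -0.51 (limma adjusted p = 1). The genotype difference in Ccl1 between stimulated and resting Th2 cells, tested as an interaction, was -0.95 with a 95% confidence interval of -1.94 to 0.04 (limma adjusted p = 1).

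Ccl5 differed by 0.99 in resting naïve cells (interval 0.12 to 1.86, limma adjusted p = 0.664) and by 0.54 in stimulated naïve cells (-0.32 to 1.41), and by -0.94 in resting Th2 cells (-1.80 to -0.07) and -0.75 in stimulated Th2 cells (-1.62 to 0.12), the last 3 with a limma adjusted p of 1. Of the CD8 T cell markers, Cd8a was not detected on any array, and Cd8b1, detected on all, differed by -0.95 (resting) and -0.70 (stimulated) in Th2 cells and by -0.14 and -0.79 in naïve cells, with no call, and its part in the Ccl5 values was not tested. The resting naïve difference of Ccl5 met the criteria when WT replicate B was left out (1.42, limma adjusted p = 0.285). Ccl3 was 0.26 to 0.72 higher in BAF180-deficient cells in all 4 states and Ccl4 0.03 to 0.59 higher, with every interval spanning 0. Xcl1 differed by -0.99 in resting naïve cells (-2.32 to 0.35). Cxcl10 differed by -0.17 in resting naïve cells (-0.89 to 0.54) and by 0 in stimulated naïve cells (-0.71 to 0.71). Ccl17 differed by 0.11 in stimulated naïve cells (-0.29 to 0.52). In the other states both were at background, detected on at most 1 array of a group, so their differences there bound no change of expression. In interactions of genotype and stimulation, 0 of 7 genes were called in Th2 cells and 0 of 7 in naïve cells (limma, adjusted p below 0.05, against 0% and 0.00702% of all probes), and 0 genes had an unadjusted p below 0.05 in either, as 1.8% and 2.31% of all probes did. With the replicate letters as a block, 1 gene had such a p in Th2 cells (Ccl1, adjusted p = 1).

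Receptors of these ligands were measured in the same cells. Of 6 receptor genes, 4 were detected on at least 1 array, and Ccr1 and Xcr1 on none. Ccr8, the receptor of Ccl1, rose by 1.20 on stimulation of WT Th2 cells and by 1.44 on that of WT naïve cells (adjusted p = 0.0032 and 0.000374, limma). Cxcr3, the receptor of Cxcl10, rose by 1.77 on stimulation of Th2 cells and fell by 1.59 on that of naïve cells. Ccr4, the receptor of Ccl17 and Ccl22, was detected on all stimulated naïve and resting Th2 arrays, and not on resting naïve arrays. In stimulated Th2 cells no WT array detected it, and at least 1 BAF180-deficient array did. For stimulated against resting WT cells, 2 receptors were called higher and 1 lower in Th2 cells and 2 higher and 2 lower in naïve cells, where 27.3% and 43.6% of all probes were called. The fourth receptor gene, Ccr3, was detected on 1 resting naïve WT array only. Between genotypes 0 of 4 were called in each of the 4 states (limma), against 0.0842% to 0.681% of all probes.

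**Figure D4:**
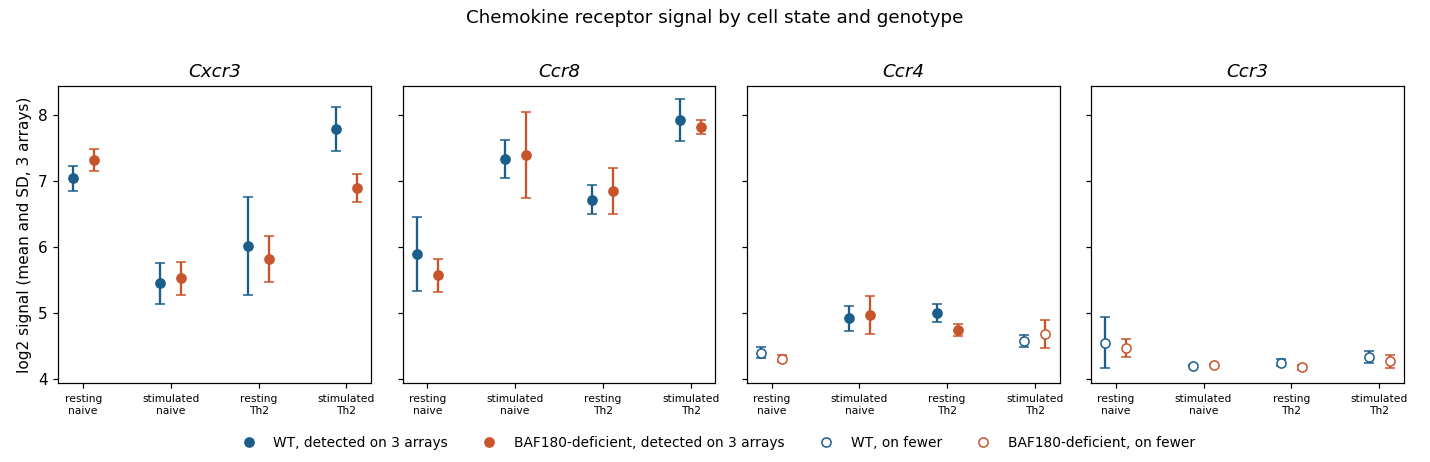
Normalized log2 signal (mean and SD of 3 arrays) of 4 receptor genes, by cell state (x axis) and genotype (blue WT, orange BAF180-deficient), with open points where fewer than 3 arrays of the group detected the probe. Cxcr3 in WT cells had means of 7.04 in resting naïve, 5.45 in stimulated naïve, 6.02 in resting Th2 and 7.79 in stimulated Th2 cells.

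Of 30 other chemokine genes, 17 were detected on at least 1 array. Stimulation of WT Th2 cells called 1 of them, Cxcl2, a neutrophil attractant, which was not detected in resting and was on all 3 stimulated arrays (adjusted p = 5.94e-05, limma), and the median difference of the 17 was 0.01. Cxcl2, Cxcl9 and Cxcl16 were lower in resting Th2 than in resting naïve WT cells (detected on 0, 0 and 1 of 3 resting Th2 arrays and on all resting naïve ones), and Cxcl9, which like Cxcl10 is a ligand of CXCR3 induced by interferon gamma, was detected on all 12 naïve and on 0 of 12 Th2 arrays. Stimulation of naïve WT cells called 2 of them lower, Cxcl2 and Ppbp, of which Ppbp was not detected in either WT group. Between genotypes 1 of 17 was called, Cxcl13, higher in resting naïve BAF180-deficient cells (adjusted p = 0.11, limma), where 2 of 3 arrays detected it against 0 of 3 WT arrays. Across all probes 27.3% were called on stimulation of WT Th2 cells and 43.6% on that of WT naïve cells. The share was 34.4% between WT resting Th2 and resting naïve cells, and 0.0842% to 0.681% between genotypes (0.681% in resting naïve cells).

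Genes of the factors that act upstream of chemokine transcription were taken as a list of 25, of which 23 were tested. In stimulated against resting WT Th2 cells 15 rose and 2 fell, with a median of 1.23 against -0.002 over all probes. Egr2 (5.21), Egr1 (3.97), Tbx21 (3.13), Irf8 (2.86) and the NF-kappaB subunits Nfkb2 (2.42), Relb (2.12), Nfkb1 (1.68) and Rela (1.50) were among those that rose, as was Rel, not detected at rest, and Nfatc3 and Nfatc1 were those that fell. In naïve cells 7 rose, among them Irf4 (3.12) and Tbx21 (2.42), and 5 fell, among them the immediate early genes Fos (-5.75), Junb (-3.28) and Jun (-2.93). In these comparisons 27.3% of all probes were called in Th2 cells and 43.6% in naïve cells, so the share in naïve cells, 12 of 23, stood closer to that of all probes. Resting naïve arrays, on which Ccl3, Ccl4 and Ccl5 were above resting Th2 arrays, had Fos at 11.27 ± 0.18 and Egr1 at 11.64 ± 0.78 in WT cells, against 6.05 ± 1.06 and 6.40 ± 0.35 in resting Th2 cells (SD, n = 3), and the part of this difference in the chemokine values was not tested. Between genotypes 0 of 23 were called in each of the 4 states (limma), against 0.0842% to 0.681% of all probes.

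The interferon response, set beside Cxcl10, was represented by 22 genes, of which 20 were tested. Their median difference of BAF180-deficient minus WT was -0.57 in Th2 cells at rest and -0.48 in stimulated ones, against 0.001 over all probes in both. For naïve cells it was -0.01 at rest and 0.06 when stimulated. Single genes called were Cmpk2 in resting Th2 cells (-1.08, adjusted p = 0.194, limma) and Eif2ak2 in stimulated Th2 cells (-1.39, adjusted p = 0.229, limma). In these comparisons 0.0842% and 0.0913% of all probes were called. Cxcl10 itself was not detected in BAF180-deficient Th2 cells and on 1 of 6 WT Th2 arrays, so no genotype difference could be measured for it there.

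The genes whose values ran most like each member's over the 24 arrays were named by Pearson correlation among 10417 genes, as a description of arrays that share cell states. For Ccl1 they were Csf2 (0.991), Tnfsf11 (0.978) and Il3 (0.973). For Ccl3 they were Rgs16 (0.979), Gfod1 (0.965) and Stat5a (0.952), and for Ccl4 Rgs16 (0.962), Egr2 (0.958) and Yrdc (0.947). Xcl1 ran most like Mapk1ip1l (0.894), Egr2 (0.858) and Irf8 (0.85). For Cxcl10 they were Fscn1 (0.92), Mreg (0.913) and Fcer2a (0.91), for Ccl17 Mrps12 (0.883), Atpaf2 (0.882) and Wdr34 (0.881), and for Ccl5 Arhgap17 (0.866), Tmem65 (0.859) and Prag1 (0.859). Among the members, Ccl1 and Ccl3 had a correlation of 0.904 and Ccl4 and Xcl1 of 0.831, while Ccl5 had at most 0.494 with any other member.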

How the data were processed

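Total RNA was amplified to biotin-labelled cRNA and hybridized to Illumina MouseRef-8 v2 BeadChips. The authors deposited the average bead intensity of each probe, exported from GenomeStudio (version 1.6.0 in the submitters' processing notes) without normalization, and a detection p-value per probe and array. The Z-score normalization of the study's methods is not in these values.

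Intensities were background corrected with neqc in limma 3.58.1 (R 4.3.3; background inferred from detection p-values, offset 16), log2 transformed and quantile normalized over 25697 probes, and the 14246 probes whose detection p was no higher than 0.02 on 1 or more arrays were kept. Means of 8 groups were fitted to 24 arrays with lmFit and eBayes (16 residual degrees of freedom), and p-values were adjusted by Benjamini-Hochberg over the kept probes. A genotype difference was called by the Z-ratio, FDR and p criteria of the methods, with FDR and p from limma and the Z-ratio from its log2 differences. The criterion of a signal above 0 was not applied separately. A state difference or interaction was called at an adjusted p below 0.05. The number of arrays, 3 a group, limits the precision. Replicate arrays correlated at 0.949 to 0.989, and the labels do not say whether they are separate mice, so p-values measure the spread between these arrays. The study describes 3 pairs of mice. Deviations of same-letter WT and BAF180-deficient arrays correlated at 0.301 (A), 0.136 (B) and 0.516 (C), so the letters were read as pairs and tried as a block.

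Genes named are all members, Pbrm1, the 3 genes most correlated with each member, and genes of the lists that were called or bear on a member. The members and lists were chosen with earlier results of these data known. Calling was tested on simulated data. Alternatives were Z-scores, other background and scaling, no detection filter, other arrays in the fit and single arrays left out. Slides are not named in the sources used here. A gene of the receptor list is not reported here and enters no count.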

Additional observations from a re-analysis of the deposited data

Results flagged for a closer look

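Ccl5 differed between the genotypes in opposite directions at rest. BAF180-deficient minus WT was 0.99 in resting naïve cells, where the 3 letter pairs gave 1.26, 0.25 and 1.45. It was -0.94 in resting Th2 cells, where they gave -1.60, -0.91 and -0.30. A gene was flagged here if all 3 pairs were above 0 in 1 state and below 0 in another. Agreement of the pairs was thus the condition and lends no support, and the share of all probes that met it was not computed. The difference of these differences, a test added after seeing the data, was -1.92 ± 0.59 (SE, limma adjusted p = 1), and in the stimulated states -1.29 ± 0.59 (limma adjusted p = 1). It thus did not pass the adjustment over all probes. Resting naïve arrays carried more myeloid, B and natural killer cell marker signal than resting Th2 arrays in both genotypes, and Cd8b1, a CD8 T cell marker, differed between genotypes at rest by -0.95 in Th2 cells and -0.14 in naïve cells. Their part in it was not tested.

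Xcl1 met the same condition, with -0.99 in resting naïve cells (letter pairs -0.87, -1.48 and -0.62) and 0.04 in resting Th2 cells, where the probe was not detected on any array and the sign has no meaning. The difference of the differences was 1.02 ± 0.90 (limma adjusted p = 1).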

How the results depend on the processing

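Most results kept their direction and call. Stimulation of Th2 cells called 5 chemokines in WT cells under every alternative, stimulation of naïve cells between 3 and 5, and resting Th2 against resting naïve cells 4 or 5 (4 with an offset of 50, without Xcl1, and with only the arrays of both groups fitted, without Ccl5), except under median scaling, which called 2. In BAF180-deficient cells, stimulation of naïve cells called 5 in the main fit, 2 with Z-scores and 7 under median scaling. The genotype comparisons called 0 except in resting naïve cells, where leaving out single arrays gave 0 to 1 (Ccl5, without WT replicate B). With the replicate letters as a block, which were read as pairs, no chemokine's call and none of these counts of calls changed, though the count of interactions with an unadjusted p below 0.05 in Th2 cells went from 0 to 1, and Ccl1 in stimulated Th2 cells kept a difference of -0.96. The causes were not tested. Several rises in naïve cells were lost under other settings. That of Ccl17 in WT cells was lost with Z-scores (0.18), with only the arrays of both groups fitted (adjusted p = 0.0738) and with normalization within the states compared (0.54), and in BAF180-deficient cells with Z-scores (0.23). In BAF180-deficient cells that of Ccl1 was lost with Z-scores (0.44) and an offset of 50 (0.64), and that of Ccl4 with Z-scores (0.94), without the detection filter (adjusted p = 0.0591), with only the arrays of both groups fitted (adjusted p = 0.077) and with normalization within states (1.81). By the criteria for genotype differences, used here as another call rule, the rises of Ccl17 in both genotypes and of Ccl1 in BAF180-deficient naïve cells were not called. In BAF180-deficient resting Th2 against resting naïve cells, median scaling lost Ccl3 (-0.81).

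The differences that changed sign had not been called. With Z-scores these were Xcl1 between genotypes in stimulated Th2 cells (-0.01), Ccl4 between genotypes in resting naïve cells (-0.04), and, in BAF180-deficient cells, Ccl17 in resting (-0.12) and stimulated (-0.03) Th2 against resting naïve cells. Median scaling turned Xcl1 between genotypes in stimulated Th2 cells (-0.26) and Xcl1 in stimulated Th2 against stimulated naïve cells (0.08 in WT, -0.16 in BAF180-deficient), which in WT was 0.01 without background correction and 0.01 with an offset of 50. Normalization within states gave -0.01 for Ccl4 between genotypes in resting naïve cells. Without both C arrays of resting naïve cells, chosen after seeing the data, Cxcl10 on stimulation of naïve cells was -0.11 in WT and -0.01 in BAF180-deficient cells.

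Leaving out single arrays moved the following across 0. Between genotypes in resting Th2 cells, Ccl1 ranged from -0.05 to 0.02, Ccl3 from -0.13 to 0.58 and the dimmer Ccl4 probe from -0.04 to 0.85. In stimulated Th2 cells Ccl3 ranged from -0.09 to 0.69, Cxcl10 from -0.1 to 0.05 and Xcl1 from -0.72 to 0.86. In resting naïve cells Ccl17 ranged from -0.25 to 0.07, Ccl4 from -0.8 to 0.81, its dimmer probe from -0.43 to 1, and Cxcl10 from -0.52 to 0.24. In stimulated naïve cells Ccl17 ranged from -0.09 to 0.32 and Xcl1 from -0.45 to 0.1. Between states in WT, Cxcl10 ranged from -0.04 to 0.12 on stimulation of Th2 cells and from -0.11 to 0.43 on that of naïve cells, Ccl17 from -0.23 to 0.08 in resting Th2 against resting naïve cells, and Xcl1 from -0.9 to 0.51 and from -0.23 to 1.18 in stimulated Th2 against stimulated and resting naïve cells. In BAF180-deficient cells Cxcl10 on stimulation of naïve cells ranged from -0.01 to 0.72, Xcl1 in stimulated Th2 against stimulated naïve cells from -0.67 to 0.74, and Ccl17 in resting Th2 against resting naïve cells from -0.06 to 0.07. A slide block was not run, as slides are not named in the sources used here. Signals near background limit Ccl17, Cxcl10 in Th2 cells and Ccl22.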
